A study of Rattus norvegicus with 10 samples.

Results

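The transcripts of 10 genes of the Notch pathway, out of 23918 genes with values in the table, were followed in sorted rat β-cells after silencing of Scrt1. They were chosen by symbol as the receptors Notch1, Notch2 and Notch3, the ligands Dll1, Dll4, Jag1 and Jag2, the DNA-binding factor Rbpj and the target genes Hes1 and Hey1. Islets of adult Sprague-Dawley rats were dissociated, and the insulin-producing β-cells were separated by FACS on the basis of their autofluorescence. The sorted cells received either a negative control siRNA (Control, 5 libraries named 1 to 5) or a pool of 4 siRNAs against Scrt1 (siSCRT1, 5 libraries named A to E), and RNA was taken after 48 h. Both groups went through the same dissociation, sorting, culture and lipid transfection, and no untransfected cells were analysed here. The sources used do not state which libraries came from separate animals, so the p-values measure the spread between these libraries, which may be in part technical.

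Notch signalling passes between touching cells. A ligand of the Delta or Jagged family on one cell binds a Notch receptor on its neighbour, the receptor is cut by an ADAM protease and then by γ-secretase, and the freed intracellular domain enters the nucleus, where it binds RBPJ and turns a gene set that RBPJ otherwise holds down, including the HES and HEY repressors, into an active one. In the pancreas the pathway is known for keeping progenitors from entering the endocrine lineage. Scrt1 encodes a zinc-finger repressor of the Snail superfamily that binds E-box motifs.

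Promoter windows, the 250 bases before an annotated start site, were found in RefSeq (build GRCr8, whereas the deposited values rest on Rnor6) for 8 of the 10 genes, with 2 windows each for Jag2 and Rbpj. Those of Dll4 and Hey1 were not among them. Each was searched on both strands for CAGGTG, the E-box core read by Snail and Scratch factors among others, and for TGGGAA, the core read by RBPJ. The last letters of the first motif are the first letters of the second, so that matches can overlap, but none did in these windows. CAGGTG occurred in windows of 2 of the 8 genes, Jag2 and Rbpj, and in 15.9% of all 33469 rat promoter windows of the same length. TGGGAA occurred in windows of 3 of the 8 genes, Dll1, Hes1 and Rbpj, against 22.1% of all windows. Each of these 3 genes had a window that held it at 2 positions, which 2.71% of all windows did. These counts are of genes, with 2 windows each for Jag2 and Rbpj, whereas the shares are of single windows, so the units differ. A match is a description of the letters and was not tested for binding. The windows of 4 of the genes described below are shown 5′ to 3′ on the strand of the gene: Notch1 (chr3:29721614-29721863, minus strand), Dll1 (chr1:64993275-64993524, minus strand), Rbpj (the more upstream of its windows, chr14:61615439-61615688, minus strand) and Hes1 (chr11:84213046-84213295, minus strand). Capitals mark TGGGAA, or TTCCCA where it lies on the opposite strand, and CACCTG, which is CAGGTG on the opposite strand.
Notch1: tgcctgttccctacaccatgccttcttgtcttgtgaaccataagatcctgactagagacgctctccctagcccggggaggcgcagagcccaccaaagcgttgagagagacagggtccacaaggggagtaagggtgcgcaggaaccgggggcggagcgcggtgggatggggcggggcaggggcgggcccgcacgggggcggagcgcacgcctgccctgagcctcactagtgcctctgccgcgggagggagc
Dll1: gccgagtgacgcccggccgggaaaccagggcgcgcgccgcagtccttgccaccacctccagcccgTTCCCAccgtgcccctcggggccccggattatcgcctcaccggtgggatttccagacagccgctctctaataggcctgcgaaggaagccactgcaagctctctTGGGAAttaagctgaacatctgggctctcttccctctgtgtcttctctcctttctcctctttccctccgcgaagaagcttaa
Rbpj: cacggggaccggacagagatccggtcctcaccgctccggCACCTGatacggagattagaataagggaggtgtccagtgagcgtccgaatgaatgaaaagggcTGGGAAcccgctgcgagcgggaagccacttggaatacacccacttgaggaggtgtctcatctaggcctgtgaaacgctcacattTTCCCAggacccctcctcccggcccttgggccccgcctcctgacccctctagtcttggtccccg
Hes1: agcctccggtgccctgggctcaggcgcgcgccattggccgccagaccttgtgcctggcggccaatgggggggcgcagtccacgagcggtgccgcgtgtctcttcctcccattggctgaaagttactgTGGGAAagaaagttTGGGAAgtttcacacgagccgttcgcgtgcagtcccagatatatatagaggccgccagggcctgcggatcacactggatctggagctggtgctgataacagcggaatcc

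The Hes1 window held both matches of TGGGAA on the strand of the gene, beginning 123 and 109 bases before the start site. In Dll1 one match lay on the opposite strand at 185 bases and the other on the strand of the gene at 82 bases. In the upstream Rbpj window the E-box core began 211 bases before the start, and the TGGGAA matches began at 148 and 64 bases. The latter match was also the one found in the second Rbpj window, since the windows overlap. The Notch1 window held neither string of letters. Only exact matches within this short window were sought, so the search does not show that Notch1 lacks a Scrt1 site. The study names Notch1 as a potential target of Scrt1. It defined putative targets by a SCRT1 motif in accessible chromatin near the gene. Those accessible sites were not examined here.

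The libraries held between 11901342 and 17444034 reads. Values are given as scaled counts, which are estimated read counts that the authors had scaled between libraries, and levels are compared between genes as scaled TPM, which takes transcript length into account. Scrt1 itself, the target of the siRNAs, was lower in every siSCRT1 library than in any Control library (22.8 to 83.3 against 156 to 250 scaled counts) and fell by 2.06 on the log2 scale (SE 0.308, limma adjusted p = 0.00618). Its 10.5 CPM difference gave p = 0.00794 in an exact two-sided permutation test, the smallest value 5 against 5 libraries allow. Of 9 β-cell markers 8 were in the table, and together they made up 103000 to 166000 CPM in Control and 105000 to 151000 CPM in siSCRT1, whereas 7 acinar markers together came to at most 0.848 CPM. Control 4 and siSCRT1 D stood apart by mesenchymal markers (18.8 and 32.2 CPM in sum, against 3.90 to 8.87 CPM in the other 8 libraries). In bulk RNA, fewer cells of a type and less RNA per cell cannot be told apart.

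In Control β-cells the 10 genes spanned a wide range of levels per length. Rbpj led with 21.0 ± 0.908 scaled TPM (SD, n = 5), above the median of 9.82 scaled TPM over all genes tested. No other member reached that median. Hes1 (2.13 ± 0.763) and Dll1 (1.63 ± 0.184) came next and overlapped between libraries, followed by Notch1 (0.916 ± 0.280), whose highest library lay below the lowest of Dll1. Jag1 (0.352 ± 0.0814), Hey1 (0.234 ± 0.188), Notch2 (0.230 ± 0.0410), Jag2 (0.128 ± 0.0821) and Dll4 (0.0461 ± 0.0213 scaled TPM) formed a run in which each gene overlapped with the next. Notch3, a receptor known from vascular mural cells, was listed at 0 in all 5 Control libraries.

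After Scrt1 silencing Rbpj was still the highest, at 18.2 ± 0.878 scaled TPM. Dll1 (2.25 ± 0.221), Hes1 (1.88 ± 0.174) and Notch1 (1.66 ± 0.238) followed, each overlapping with the next. As in Control, the libraries of Notch1 overlapped with those of Hes1 and lay clear above those of Jag1 (0.537 ± 0.108 scaled TPM). Unlike in Control, they also overlapped with those of Dll1, narrowly, since Notch1 reached 2.01 and Dll1 began at 2.00 scaled TPM. The plot of levels per length shows this order with every library.

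**Figure D1:**
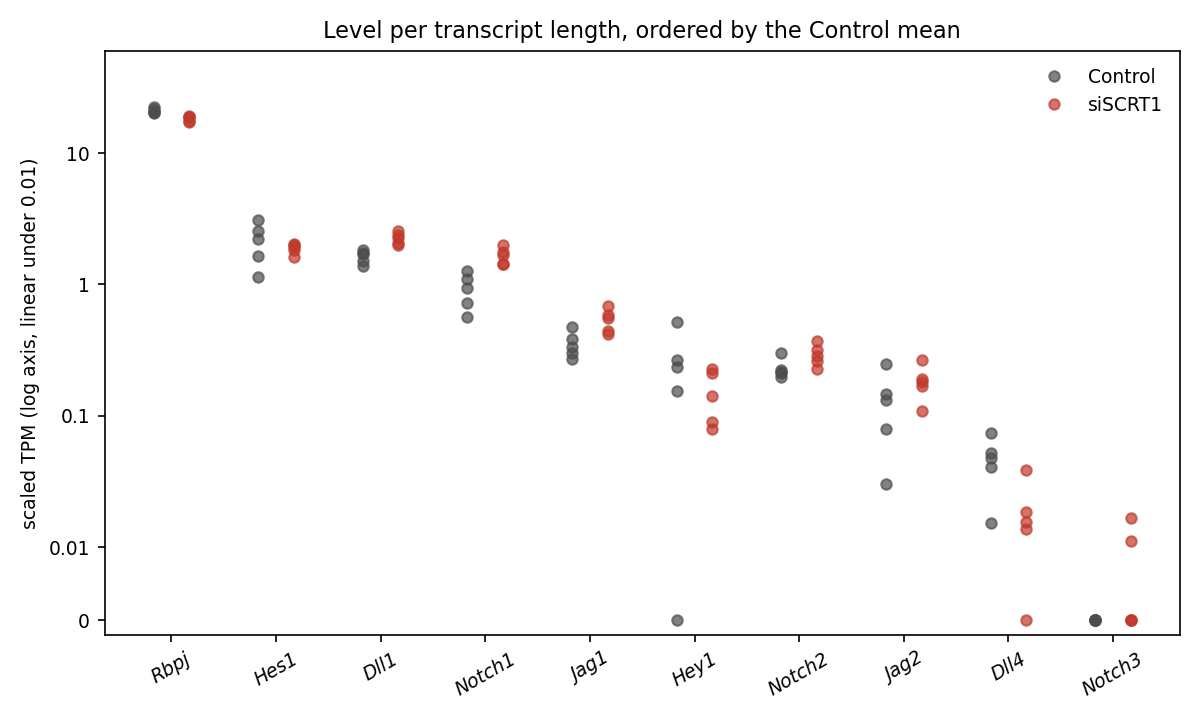
Scaled TPM (vertical axis, logarithmic above 0.01 and linear below) of the 10 genes, with one point per library, Control in grey and siSCRT1 in red, ordered by the Control mean. Rbpj lies between 17.1 and 22.2, Hes1, Dll1 and Notch1 lie between 0.567 and 3.09, and the Notch3 points are at 0 in all Control libraries.

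Of the 10 genes, 7 passed the filter on low values (at least 5 libraries with 10 reads or more, after adjusting each library to the median depth), and these were read from one limma fit over 12941 genes. Notch1 was the only one of the 7 called at an adjusted p under 0.05, and it rose. Over all genes tested 136 were called, or 1.05%, and 0.371% were called as raised. Notch1 was among the genes the study had picked from these same libraries, so this count is not independent evidence of its direction. The study also measured Notch1 by qPCR in sorted β-cells that received either siRNA. It describes the change there as opposite to that in islet maturation. Those qPCR values were not examined here. At an unadjusted p under 0.05 there were 4 of the 7 (Notch1, Dll1, Jag1 and Rbpj), against 11.1% of all genes. The groups did not overlap for Notch1, Dll1 and Rbpj, against 3.51% of all genes, with 1.48% higher and 2.03% lower in siSCRT1. The median log2 difference of the 7 was 0.46, while that over all genes tested was 0.0035. Because Notch3, Dll4 and Hey1 did not pass the filter, this median does not describe the set of 10.

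**Figure D2:**
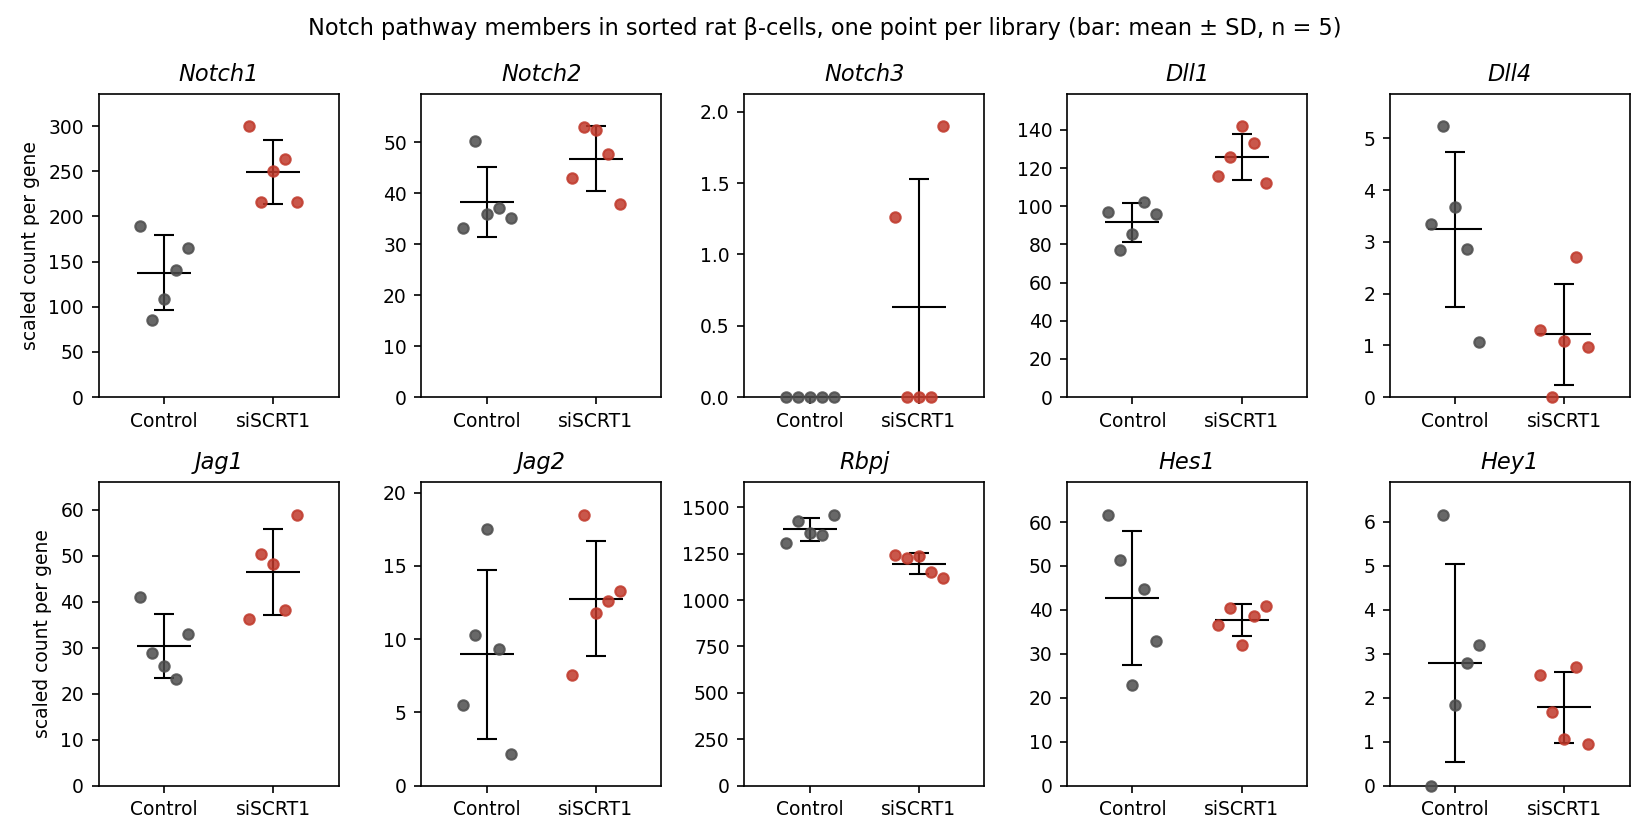
Scaled counts of each of the 10 genes (vertical axes, each from 0), with one point per library, Control in grey and siSCRT1 in red, and the mean with its SD over 5 libraries as a bar. The groups are separated for Notch1 (85.4 to 189 against 216 to 300), Dll1 (77.0 to 102 against 112 to 142) and Rbpj (1307 to 1461 against 1118 to 1244), and overlap or lie near 0 for the others.

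Notch1 (ENSRNOG00000019322), the receptor whose intracellular domain relays the signal, had 189, 85.4, 109, 141 and 165 scaled counts in Control 1 to 5. In siSCRT1 A to E it had 300, 216, 250, 264 and 216. The highest Control library thus stayed below the lowest siSCRT1 library, and Control 2 was the lowest of all. The mean went from 138 ± 41.7 to 250 ± 35.4 (SD, n = 5 each), a rise of 0.90 on the log2 scale (SE 0.191, 95% interval 0.49 to 1.31, limma adjusted p = 0.0440), or 1.87-fold. Since the groups did not overlap, libraries that carry the same number in the table differed in the same direction in all 5 pairs, by 0.39 to 1.34. With the library number as a block the adjusted p was 0.00788. That fit called 259 genes, 2.00% of those tested, and Notch1 was again the only member among them. The call of Notch1 was lost in 13 of 20 alternative settings, among them the removal of any single library other than Control 1, with adjusted p-values of 0.0586 to 0.132, while the log2 rise stayed between 0.48 and 1.03 in all 20. Without Control 4 and siSCRT1 D, the libraries with high mesenchymal markers, the rise was 0.90 with an adjusted p of 0.213, in a fit that called 25 genes in all.

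Notch2 (ENSRNOG00000018835), the other receptor of the set that passed the filter, had 33.1, 50.3, 35.9, 37.2 and 35.1 scaled counts in Control 1 to 5. The siSCRT1 libraries A to E had 42.9, 53.0, 52.4, 47.6 and 37.9. The groups overlapped because Control 2 lay far above the other Control libraries. The log2 difference was 0.29 (SE 0.169, 95% interval -0.08 to 0.65, limma adjusted p = 0.565), and siSCRT1 was the higher in all 5 same-numbered pairs. Notch3 had 0 reads among 70697994 in Control, which allows a level of up to 0.0522 CPM (exact Poisson 95% interval), or 0.0424 CPM by the limit of 3 reads. In siSCRT1 there were 3 reads among 73609976 (0.0408 CPM, exact Poisson 95% interval 0.00840 to 0.119), 1 in library A and 2 in library E. These intervals and limits cover counting error only, and no fold was computed.

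When Notch4, the receptor outside the set, was added (0.478 ± 0.0890 scaled TPM in Control, 0.472 ± 0.0702 in siSCRT1, log2 difference -0.01, limma adjusted p = 0.987), Notch1 made up 55.5% ± 8.10 of all Notch receptor transcripts per length in Control and 68.1% ± 4.17 in siSCRT1 (SD, n = 5 each). The ranges of this share were 42.5% to 63.0% and 63.8% to 74.2%. Receptor transcripts together came to 1.62 ± 0.314 scaled TPM in Control and 2.43 ± 0.202 in siSCRT1. These sums contain Notch1 and are given as a description.

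Dll1 (ENSRNOG00000059984), a Delta-type ligand, had 97.0, 77.0, 85.6, 102 and 95.8 scaled counts in Control 1 to 5. In siSCRT1 A to E it had 116, 126, 142, 133 and 112. All siSCRT1 libraries were above all Control libraries, and the ranges were narrow in both groups. The log2 difference was 0.46 (SE 0.116, 95% interval 0.21 to 0.71), with a limma adjusted p of 0.10 over all genes, and thus did not pass the threshold. It stayed above the threshold in all 20 alternatives (adjusted p 0.0888 to 0.282), with a difference of 0.30 to 0.50.

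Jag1 (ENSRNOG00000007443), a ligand of the Jagged type, had 41.1, 28.8, 26.1, 23.3 and 33.1 scaled counts in Control 1 to 5. It had 36.2, 50.4, 48.3, 38.2 and 59.0 in siSCRT1 A to E. Of the siSCRT1 libraries 3 were above every Control library, whereas A and D lay below Control 1. The log2 difference of 0.60 (SE 0.203, 95% interval 0.16 to 1.04) did not pass (limma adjusted p = 0.257). Jag2 (ENSRNOG00000013927) rested on few reads, with 2 to 19 reads per library in Control and 6 to 22 in siSCRT1. Its pooled level was 0.651 CPM (exact Poisson 95% interval 0.476 to 0.868) in Control and 0.910 CPM (0.705 to 1.16) in siSCRT1, and the difference of 0.70 between libraries had an SE of 0.477 (limma adjusted p = 0.628). Without Control 5, the library with the fewest Jag2 reads, it was 0.30, and without Control 3 it was 1.00. A Jag2 difference could not be told from 0 at this depth.

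Dll4, a Delta-type ligand best known from endothelial cells, did not reach the filter. It had 3, 5, 4, 3 and 1 reads in Control 1 to 5 and 1, 0, 1, 3 and 1 in siSCRT1 A to E. The pooled level was 0.226 CPM (exact Poisson 95% interval 0.129 to 0.368) from 16 reads in Control and 0.0815 CPM (0.0299 to 0.177) from 6 reads in siSCRT1. The intervals overlapped, and the values of single libraries overlapped as well. Dll4 was lower in siSCRT1 in all 5 same-numbered pairs, with log2 differences from -3.52 (number 2) to -0.07 (number 4), on at most 5 reads per library. Of 10 endothelial markers 9 were in the table, and Emcn and Cldn5 were at 0 in all libraries. The summed level of the list was 4.24 to 6.83 CPM in Control and 5.04 to 7.48 CPM in siSCRT1. Its part in the values of Dll4, Notch1 and Jag1 was not tested.

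Including Dll3, a divergent Delta family member outside the set, the ligands added up to 5.66 ± 1.36 scaled TPM in Control (3.75 to 6.78) and 8.28 ± 1.18 in siSCRT1 (6.78 to 10.1). Dll1 made up 29.7% ± 4.62 of that sum in Control and 27.8% ± 5.69 in siSCRT1. The share of Dll1 thus differed by less than the spread between libraries, whereas that of Notch1 among the receptors did not overlap between the groups. The larger part of the ligand sum was Dll3 itself, at 3.51 ± 1.24 scaled TPM in Control and 5.29 ± 1.36 in siSCRT1. Dll3 has 2 transcripts in the table, and its difference was smaller on scaled counts (60.8 ± 23.1 and 74.6 ± 15.7). The log2 difference was 0.36 on scaled counts (limma adjusted p = 0.655) and 0.51 with log2(TPM + 1) (limma adjusted p = 0.386).

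Rbpj (ENSRNOG00000046327), the DNA-binding partner of the Notch intracellular domain, was the member with the most reads and the smallest error. It had 1307, 1427, 1364, 1353 and 1461 scaled counts in Control 1 to 5, and 1244, 1229, 1237, 1154 and 1118 in siSCRT1 A to E. Every siSCRT1 library lay below every Control library, by a small margin between siSCRT1 A and Control 1. The log2 difference was -0.21 (SE 0.0572, 95% interval -0.33 to -0.08), a level 0.865 times that of Control, with a limma adjusted p of 0.134, which did not pass. It kept its sign in all 20 alternatives (-0.23 to -0.18). The number of Rbpj transcripts for each Notch1 transcript, per length, was 25.0 ± 8.72 in Control (15.8 to 38.2) and 11.1 ± 1.41 in siSCRT1 (9.47 to 13.0).

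Hes1 (ENSRNOG00000001720), a repressor that is among the best known direct targets of Notch, had 61.7, 51.4, 23.0, 44.7 and 33.0 scaled counts in Control 1 to 5. In siSCRT1 A to E it had 36.6, 40.4, 32.1, 38.6 and 40.8. The siSCRT1 libraries lay within the range of the Control libraries, which spread over 42.8 ± 15.2 against 37.7 ± 3.54 in siSCRT1 (SD, n = 5 each). The log2 difference was -0.10 (SE 0.242, 95% interval -0.63 to 0.42, limma adjusted p = 0.908). Without Control 1 it was 0.05, and without Control 3 it was -0.30. Hey1, another target gene, did not pass the filter, with 0, 6, 2, 3 and 3 reads in Control 1 to 5 and 2, 2, 1, 3 and 1 in siSCRT1 A to E. Its pooled level was 0.198 CPM (exact Poisson 95% interval 0.108 to 0.332) in Control and 0.122 CPM (0.0559 to 0.232) in siSCRT1.

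**Figure D3:**
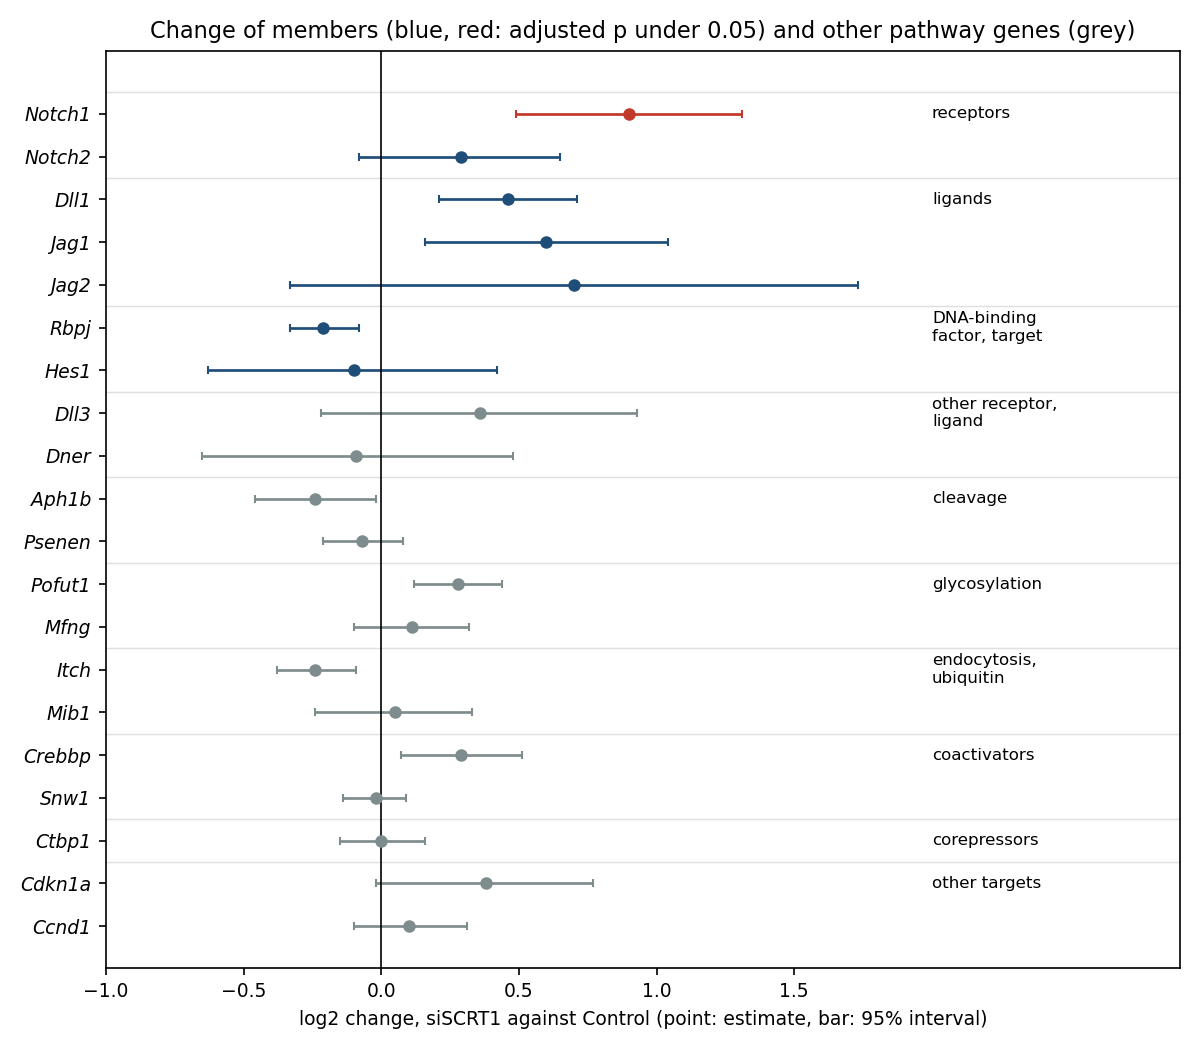
Log2 difference between siSCRT1 and Control (horizontal axis; point, limma estimate; bar, 95% interval) for the 7 members that passed the filter (blue; red for an adjusted p under 0.05) and for 13 other pathway genes (grey), grouped by role. Notch1 is the only red point, at 0.90, and the intervals of Dll1, Jag1 and Rbpj also lie on one side of 0.

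Same-numbered pairs were also compared. For Notch1, Dll1, Rbpj and Scrt1 the groups did not overlap, so the same direction in all 5 pairs followed from that and adds no support. The share of all genes with 5 of 5 pairs in the same direction was not computed. For siSCRT1 and Control libraries of the same number, Notch1, Notch2 and Dll1 were higher in siSCRT1 in 5 of 5 pairs, Jag1 and Jag2 in 4 of 5, and Hes1 in 2 of 5, while Rbpj was lower in 5 of 5. The differences of Notch1 ran from 0.39 (number 5) to 1.34 (number 2), and those of Rbpj from -0.39 (number 5) to -0.07 (number 1). For Scrt1 all 5 were below 0, from -3.01 (number 4) to -1.32 (number 2). Of the members that failed the filter, Dll4 was lower in siSCRT1 in 5 of 5 pairs and Hey1 in 4 of 5. Notch3 was higher in 2 of 5. These rest on few reads.

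**Figure D4:**
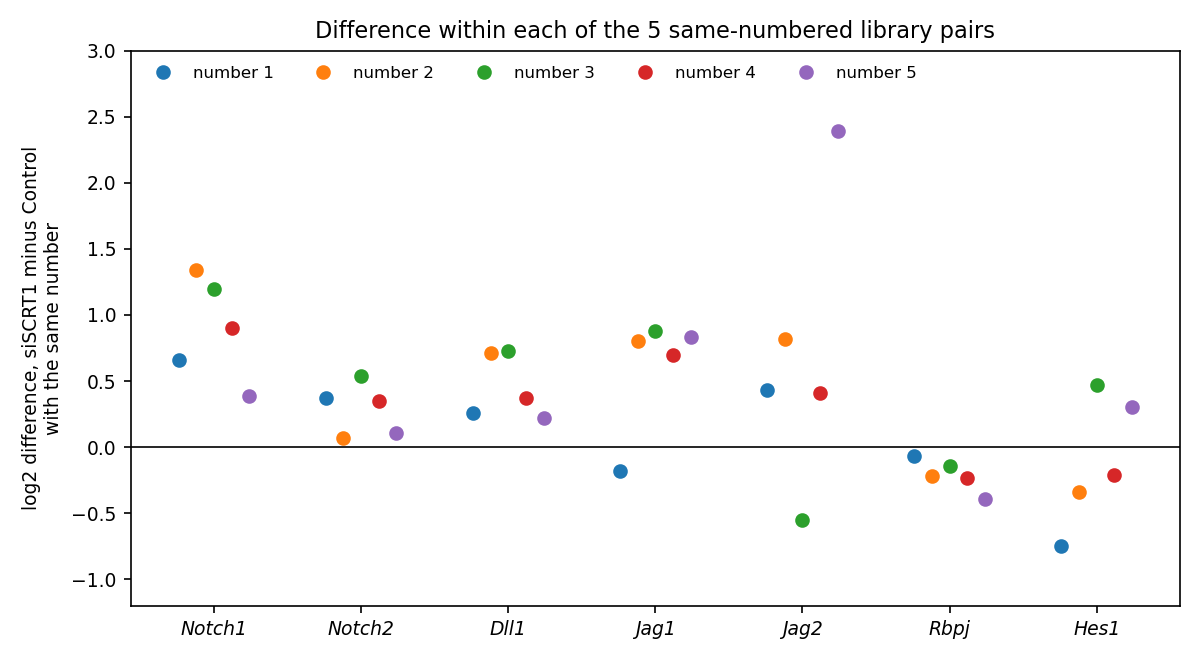
Log2 difference between the siSCRT1 and the Control library of each table number (vertical axis) for the 7 members that passed the filter, with one coloured point per number. All 5 points lie above 0 for Notch1, Notch2 and Dll1 and below 0 for Rbpj, and Hes1 has points on both sides.

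Across the 10 libraries, which share the group difference, Notch1 varied most closely with Dll1 among the members (Pearson r = 0.853 on log2 CPM) and in the opposite sense to Rbpj (r = -0.704). With Hes1, its classical target, r was -0.0422, and Dll1 and Hes1 gave -0.0620. Among 10123 genes that averaged 5 CPM or more, those most like Notch1 over the 10 libraries were Ppp1r16a (r = 0.968), Sox12 (0.952), Nbeal2 (0.930), Myrf (0.923) and Zhx2 (0.916). Their log2 differences ran from 0.24 (Ppp1r16a) to 0.63 (Sox12), and none passed the limma test, without the block (adjusted p 0.122 to 0.365) or with it (0.0727 to 0.212). These coefficients are descriptions over 10 libraries.

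**Figure D5:**
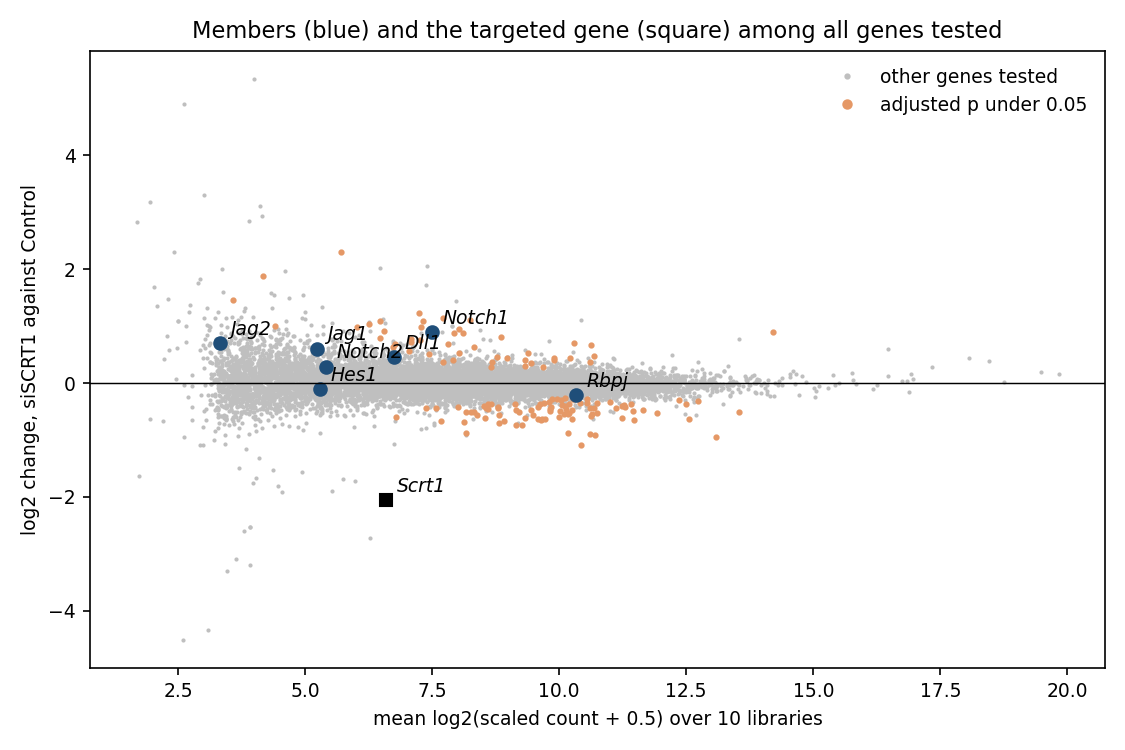
Log2 difference (vertical axis) against the mean log2 scaled count (horizontal axis) of all 12941 genes tested (grey; orange for an adjusted p under 0.05), with the 7 members in blue and Scrt1 as a black square. Notch1 lies at 0.90, Rbpj at -0.21 at the highest level of the 7, and Jag2 at the lowest level.

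Most members have 1 transcript in the table, so that the gene and transcript values are the same; Notch2 has 2, of which 1 was tested. At the transcript level, where 0.415% of 17578 transcripts were called, 0 of the 7 member transcripts tested were called by limma or by limma-voom, and 4 had an unadjusted p under 0.05. Notch1 had a log2 difference of 0.90 (SE 0.202) and a limma adjusted p of 0.118.

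The rest of the pathway was read from the same fit. Of 68 further genes listed by role, 65 were in the table and 52 passed the filter. None was called by limma, with or without the block, or by limma-voom, and 9 of the 52 (17.3%) had an unadjusted p under 0.05, 7 higher and 2 lower in siSCRT1, against 11.1% of all genes tested (691 higher and 744 lower). Their median log2 difference was 0.07, with 38 above 0 and 14 below, and over all genes tested 51.0% were above 0.

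The machinery that cuts the receptor was well expressed. The 9 genes of ADAM proteases, furin and γ-secretase subunits had Control levels of 5.89 to 108 scaled TPM, the highest being Psenen, a γ-secretase subunit (108 ± 6.43 in Control, 103 ± 5.80 in siSCRT1, log2 difference -0.07, limma adjusted p = 0.768). Aph1b, another subunit, had the smallest p of this list, with a difference of -0.24 (adjusted p = 0.387). Among the glycosyltransferases that modify the receptor, Pofut1, which adds the O-linked fucose, went from 9.73 ± 0.753 to 11.8 ± 0.679 scaled TPM. Its groups did not overlap, which held for 1 of the 52 genes against 3.51% of all genes tested, so that this count is not above the background. The log2 difference of Pofut1 was 0.28 (SE 0.0732, limma adjusted p = 0.115). Mfng, a Fringe enzyme that extends that fucose and alters which ligands a receptor answers to, was at 40.6 ± 5.86 and 43.7 ± 2.96 scaled TPM (difference 0.11, limma adjusted p = 0.711).

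Among genes of endocytosis and ubiquitination, Itch, a ubiquitin ligase that acts on Notch, had a log2 difference of -0.24 (SE 0.0665, limma adjusted p = 0.145), and Mib1, the ligase that activates ligands, 0.05 (adjusted p = 0.925). Of the coactivators, Crebbp, a histone acetyltransferase, had 0.29 (limma adjusted p = 0.273) and Snw1, a cofactor with the highest level of its list, -0.02 (adjusted p = 0.907). Ctbp1, the corepressor gene with the highest level of its list, differed by 0.00 (limma adjusted p = 0.995). Dll3 and Dner, a Delta-like transmembrane protein, differed by 0.36 and -0.09 (limma adjusted p = 0.655 and 0.932). The difference of Dll3 was 0.19 without Control 2 and 0.21 without Control 3.

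The other target genes were for the most part near the limit of detection. Of 14 listed, 8 did not pass the filter (Hes2, Hes3, Hes5, Hes7, Hey2, Heyl, Nrarp and Neurog3), and no library held more than 8.30 reads of any of them. Hes2 had 0 reads in all 10 libraries. The 6 that were tested all had a log2 difference above 0, from 0.08 to 0.38, and none was called by limma, with or without the block, or by limma-voom. Without the block none had an unadjusted p under 0.05, and with it Cdkn1a had. The highest was Ccnd1, the cyclin D1 gene (70.5 ± 9.50 scaled TPM in Control and 75.7 ± 6.64 in siSCRT1, difference 0.10, limma adjusted p = 0.736). Cdkn1a, which encodes the cell cycle inhibitor p21, had the smallest p of the list, with a difference of 0.38 (SE 0.183, limma adjusted p = 0.472). It was higher in siSCRT1 in 5 of 5 same-numbered pairs, and with the block its unadjusted p was 0.00112 and its adjusted p 0.0539. Without siSCRT1 B the difference was 0.22.

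Markers of duct cells, in which Notch targets are known to be active, summed to 212 to 295 CPM in Control and 224 to 294 CPM in siSCRT1 over 6 genes, of which Krt7 supplied 184 to 260 and 198 to 259 CPM. Sox9, which marks ducts and is a Notch target, was at 0.545 to 1.29 CPM in Control and 0.679 to 1.33 CPM in siSCRT1. Immune markers (6 genes, Cd3e at 0) came to 3.07 to 4.37 and 3.26 to 4.88 CPM, α-cell markers (5 genes) to 213 to 582 and 210 to 463 CPM, and δ- and PP-cell markers (4 genes) to 16.6 to 74.7 and 20.4 to 82.8 CPM. In each of these lists the ranges of the groups overlapped, and their part in the member values was not tested.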

How the data were processed

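RNA-seq libraries of sorted rat β-cells were analysed from 1 deposited table. Per the labels and the methods, single-end reads were aligned by the authors to the Rnor6 transcriptome with kallisto, which shares reads between transcripts, after FastQC and Trimmomatic, and Sleuth was used downstream. The deposited estimated counts and TPM values are a scaled signal per transcript, normalised between libraries by the authors, and not counts. In each library low values were whole multiples of 1 step, the worth of 1 read. Division by it gave the reads and CPM used here (48.78% of transcript values and 75.27% of gene values whole within 0.001; 11901342 to 17444034 reads per library). A count model was not used, since the values were scaled. The table also gives transcript lengths, and 9363 lines without values were left out.

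Scaled counts were summed per gene, and log2(value + 0.5) was the response in limma 3.58.1 (eBayes with trend; R 4.3.3), without covariates, with Benjamini-Hochberg adjustment over 12941 genes; fold changes on this scale are understated for low genes. Transcripts with at least 5 reads in at least 5 libraries were fitted alike. The exact permutation test was run for Scrt1 only. In simulated data of 12941 genes, 97% of 200 genes changed 2-fold were recovered, and 3.48% of calls were false. The simulation drew libraries independently and set the same dispersion for every gene, whereas the spread in these libraries differed between genes. The 97% is therefore not the share of 2-fold changes that would be found in these data. Groups came from the labels. The table numbers libraries 1 to 5 in both groups (A is 1, E is 5). Deviations of same-numbered libraries from their group means correlated in all 5 pairs (r 0.131 to 0.351 over 12941 genes). Each Control library correlated highest with the siSCRT1 library of its own number. Between different numbers r reached 0.167 (Control 3), above the lowest same-numbered value (0.131, number 2). The numbers were taken as pairs in the fit with a block on this basis. The pairing rests on the data, not on a stated preparation.

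The members and lists were chosen with earlier results of these data known. Named were the members, Scrt1, in each pathway list the gene with the smallest p and that with the highest TPM, and the 5 genes most like Notch1 (of these, 1 is left out here); Notch4, Sox9, Krt7 and the genes that failed the filter were named after their values were seen. Maml3, Kat2b and Ep300 were not found in the table. Alternatives were other scalings, pseudocounts, filters, TPM, limma-voom on reads, the block and leaving out libraries. Python 3.11.15 and matplotlib 3.10.9 made the plots.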

Additional observations from a re-analysis of the deposited data

Results flagged for a closer look

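Notch2 in Control 2, at 50.3 scaled counts, lay far from the other 4 Control libraries, which held 33.1 to 37.2. The gap made up 0.759 of the whole range of the group, above the critical value of 0.71 for 5 samples. This was 1 of 21 groups examined, where chance gives about 1 in 20.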

How the results depend on the processing

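The number of members called was 1, and it was 0 with log2(TPM + 1), with log2(TPM + 0.1), with no filter and without both libraries numbered 4, the last chosen after seeing the data; leaving out each library in turn it was 0 to 1. Notch1 had adjusted p-values of 0.0692, 0.0957, 0.0767 and 0.213 under the first 4 of these, with log2 rises of 0.48, 0.83, 0.90 and 0.90. Scrt1 without both libraries numbered 4 was at -1.82 with an adjusted p of 0.0621. In all other alternatives its call was kept. The count of other pathway genes and of member transcripts called was 0 in all 20 alternatives each. With the replicate block the number of genes called went from 136 to 259, the count of members called was 1, and no call of a named gene changed, the 5 genes most like Notch1 included; these 5 were run under no other alternative. Without both libraries numbered 4 the number of genes called was 25, and leaving out single libraries it was 62 to 133. Leaving out single libraries turned the sign, with no call involved, of Hes1 (-0.30 to 0.05), Dner (-0.23 to 0.11), Mib1 (-0.04 to 0.14) and Ctbp1 (-0.05 to 0.05). Of 419 alternative values of 21 named genes, those 5 not among them, 395 kept direction and side of the threshold. The causes were not tested. Jag2 did not pass the stricter filter and has no value there. Depth limits Notch3, Dll4, Hey1 and Jag2, of which few reads were found.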
